A study of Drosophila melanogaster with 6 samples.

Results

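The genes described here encode the machinery that moves newly made proteins into the endoplasmic reticulum (ER) and carries them onward in coated vesicles. The list was made by gene symbol and holds 38 genes: the translocon and its partners, the signal recognition particle (SRP) and its receptor, signal peptidase, oligosaccharyltransferase (OST), and the COPII and COPI coats. Of the 38 listed genes, 34 were matched to one of the 14869 gene identifiers in the count files. Another 4 genes (Sec23, Tango1, KdelR and garz) were not matched and were not analysed here. Of the 34 matched genes, 33 passed the filter on low counts, which 8690 genes in all passed. The exception was Spase12, a signal peptidase subunit with 0 reads in each of the 6 libraries. In a newer annotation 100% of its exonic length is overlapped by another gene, and overlapping genes can lose reads in counting.

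The study treated S2-DRSC cells, a Drosophila melanogaster culture line with features of blood cells, with JQ1, a small molecule that displaces BET proteins from acetylated chromatin. Cells received 10 µM JQ1 in the solvent DMSO for 1, 2, 4 or 20 h. Control cells received DMSO alone for 1 or 20 h. Polyadenylated RNA was sequenced from 1 library per treatment and time, which gave 4 JQ1 libraries and 2 DMSO libraries of the same unmodified line. No source used here says that the libraries came from separate cultures, so p-values measure only the spread between these libraries.

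Proteins that enter the secretory pathway carry a signal peptide that SRP binds as it leaves the ribosome. SRP docks at its receptor and hands the ribosome to the Sec61 channel, where signal peptidase removes the signal peptide and OST attaches sugar chains to the growing protein. COPII coats then bud vesicles that leave the ER, and COPI coats return escaped ER proteins and carry cargo within the Golgi. S2 cells secrete extracellular matrix proteins through this route.

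Libraries held 26769735 to 29823608 reads assigned to genes with JQ1, against 24547077 and 27786072 with DMSO. A read count divided by a factor from the 100 genes most abundant in DMSO is called a scaled count. The smallest count of a tested member was 456 reads (Srp14 at JQ1 4 h, exact 95% Poisson interval 415.1 to 499.8, counting error only). All 12 blood cell markers examined were detected, and their summed level was 609385 to 1098630 scaled counts in the JQ1 libraries, against 643240 and 656118 in the DMSO libraries, highest at JQ1 20 h. Most of the sum came from Col4a1, vkg and Pxn. The 12 markers did not share one direction. Their log2 fold changes at JQ1 20 h (1 library) over mean DMSO ran between -1.59 (Sr-CI) and 3.29 (Hml). Enterocyte markers summed to between 0 and 2.64 scaled counts in JQ1 libraries and to 0 in both DMSO libraries. The neuronal sum was 238 to 378 with JQ1 and 647 and 664 with DMSO, most of it from elav. Muscle markers summed to 1440 to 1705 with JQ1 and 2009 and 2149 with DMSO, ovarian somatic markers to 25.5 to 114 with JQ1 and 16.7 and 19.5 with DMSO, and the germline marker bam to 7.37 to 12.0 with JQ1 and 8.91 and 14.3 with DMSO. The share of records that named no gene was 21.9% at JQ1 20 h and 24.4% to 25.6% at the earlier JQ1 times, against 27.2% and 27.3% in DMSO. Whether marker levels or this share play a part in the results for the members was not tested.

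As a list, the members had a median above that of all genes during the first hours of JQ1. At 20 h a subset led by the OST subunits stood well above the median of all genes. In scaled counts the member median was also nearer to the DMSO level than the median of all genes in those first hours. With the TMM method or DESeq2 size factors it was farther from the DMSO level. The median log2 fold change of the 33 members, JQ1 over mean DMSO, was -0.25, -0.28, -0.31 and 0.02 at 1, 2, 4 and 20 h. Over all 8690 tested genes the medians were -0.54, -0.65, -0.81 and -0.59 at those times. With 1 library per time these medians have no replicate check, and the 4 times share the same DMSO libraries. In bulk RNA, fewer cells of a type and less RNA per cell cannot be told apart.

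The level of every gene against DMSO depends on how the libraries are scaled. With the TMM method or DESeq2 size factors the median of all genes lay between -0.10 and 0.01 at every time, and the member median was positive at every time, reaching 0.51 with TMM and 0.58 with DESeq2 factors at 20 h. The gap between the member median and the median of all genes was 0.29, 0.37, 0.50 and 0.61 at 1, 2, 4 and 20 h. Scaling shifts every gene of a library by nearly the same amount, so the gap could not move with it. Its range over the 7 scalings, 0.607 to 0.61 at 20 h, is therefore no check. Without the filter on low counts the gap was 0.37 at 4 h and 0.51 at 20 h. Directions against DMSO below hold for the index scaling unless stated otherwise.

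Because genes of different abundance changed by different amounts, each member was also set beside the tested genes of its own abundance, in 20 bins by DMSO level. The median distance of the members from the median of their bin was 0.19, 0.22, 0.29 and 0.40 on the log2 scale at 1, 2, 4 and 20 h. At 20 h, 27 of 33 members lay above the median of their bin, against 25 of 33 at each earlier time. Those below at 20 h were SrpRalpha, Srp19, Srp68 and Srp72, the coat subunit zetaCOP and the small GTPase Arf79F. Spread among members widened at 20 h, when their log2 fold changes ran between -0.91 (Srp19) and 1.54 (OstDelta), while at 1 h they ran between -0.83 (Sec24AB) and -0.06 (Ost48).

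**Figure D1:**
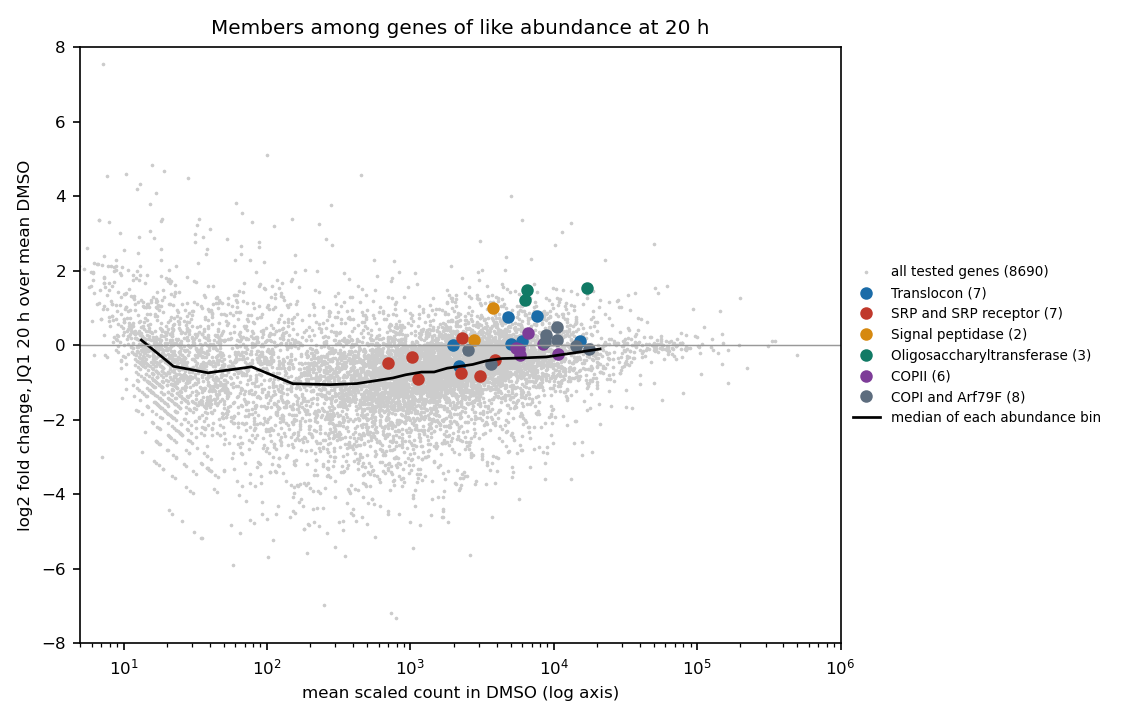
Log2 fold change of JQ1 20 h over mean DMSO (y axis) against the mean scaled count in DMSO (x axis, log) for the 8690 tested genes in grey and the 33 tested members coloured by class, with 1 library at JQ1 20 h and 2 DMSO libraries. The black line joins the medians of the 20 abundance bins, and 27 of 33 members lie above the median of their bin.

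The members took a larger share of the gene reads at 20 h, a measure that is relative to the reads of all other genes, as total-count scaling is. It was 0.703%, 0.714%, 0.740% and 0.940% with JQ1 of 1, 2, 4 and 20 h, against 0.676% and 0.679% with DMSO of 1 and 20 h. The 95% Wilson interval at JQ1 20 h was 0.936% to 0.943%, against 0.675% to 0.682% for DMSO 20 h, for counting error only. Each JQ1 library lay above both DMSO libraries in this share, and JQ1 20 h stood apart from the other 5.

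In the test of all 4 JQ1 libraries against both DMSO libraries, 8 of 33 members were lower (24.2%) and 0 were higher by edgeR's quasi-likelihood test with an adjusted p under 0.05. Among all tested genes 44.3% were lower and 1.43% were higher. At an unadjusted p under 0.05 the count of higher members was also 0, and by the Wald test of DESeq2 with the same scaling 10 members were lower and 0 higher. The 8 were TRAM, SrpRalpha, Srp9, Srp19, Srp68, Srp72, Sec31 and zetaCOP. This split rests on the scaling, since with TMM or DESeq2 factors 0 members were lower and 3 were higher. Among all genes 6.51% were lower and 5.02% higher with TMM, and 5.55% were lower and 5.3% higher with DESeq2 factors. The split also rests on the DMSO pair, since without either DMSO library 0 members and 0 genes were called. Without JQ1 20 h 21 members were lower, and without JQ1 2 h or JQ1 4 h 2 were. All 4 JQ1 libraries lay below both DMSO libraries in 15 of 33 members, against a background of 67.9% of tested genes, and above both in 0 members (background 3.74%).

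When the JQ1 libraries of 1, 2 and 4 h were set against DMSO in a fit of 3 groups, 21 of 33 members were lower (63.6%, background 64.4%) and 0 were higher (background 2.5%) by edgeR. The 3 OST genes, the 3 Sec61 genes, SsRbeta, Spase22-23, Sar1, betaCOP, deltaCOP and Srp14 were not called in this contrast. At an unadjusted p under 0.05, 0 members were higher. All 3 early libraries lay below both DMSO libraries in 28 of 33 members (background 79.4%). Without DMSO 1 h 6 members were lower, without DMSO 20 h 4 and without JQ1 2 h 10. With TMM or DESeq2 factors 0 members were lower and 19 were higher. Among all genes 19.0% were lower and 17.6% higher with TMM, and 17.6% were lower and 19.0% higher with DESeq2 factors.

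The contrast of JQ1 20 h against JQ1 of 1, 2 and 4 h leaves out the DMSO levels. In it 16 of 33 members were higher by edgeR (48.5%, background 17.2%) and 0 were lower (background 7.34%), and 0 were lower at an unadjusted p under 0.05 as well. The single 20 h library is assumed to vary like the other groups. The median estimate over members was 0.33 on the log2 scale, beside 0.10 over all tested genes. Across the 13 other settings, 7 members stayed called: Ost48, OstDelta, Ostgamma, Sec63, SsRbeta, Spase22-23 and betaCOP. JQ1 20 h was the highest of the 4 JQ1 libraries in 25 of 33 members (background 44.4%). Without the JQ1 2 h library exactly these 7 remained, without either DMSO library 9 were called, and with total-count scaling 8 members were called. At 20 h against DMSO in the same fit, 9 of 33 members were higher (27.3%, background 7.55%) and 3 were lower (9.09%, background 42.4%). The 3 lower ones were SrpRalpha, Srp68 and Srp72, and none of them was called without either DMSO library. Beside the OST genes, the higher ones were Sec63, SsRbeta, Spase22-23, Sar1, betaCOP and deltaCOP. The calls for Sar1, betaCOP and deltaCOP did not hold in every other setting, where their estimates went down to 0.22, 0.37 and 0.16. With TMM or DESeq2 factors the split in that contrast was 20 higher and 0 lower. Among all genes 17.8% were higher and 20% lower with TMM, and 19.3% were higher and 18.5% lower with DESeq2 factors.

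**Figure D2:**
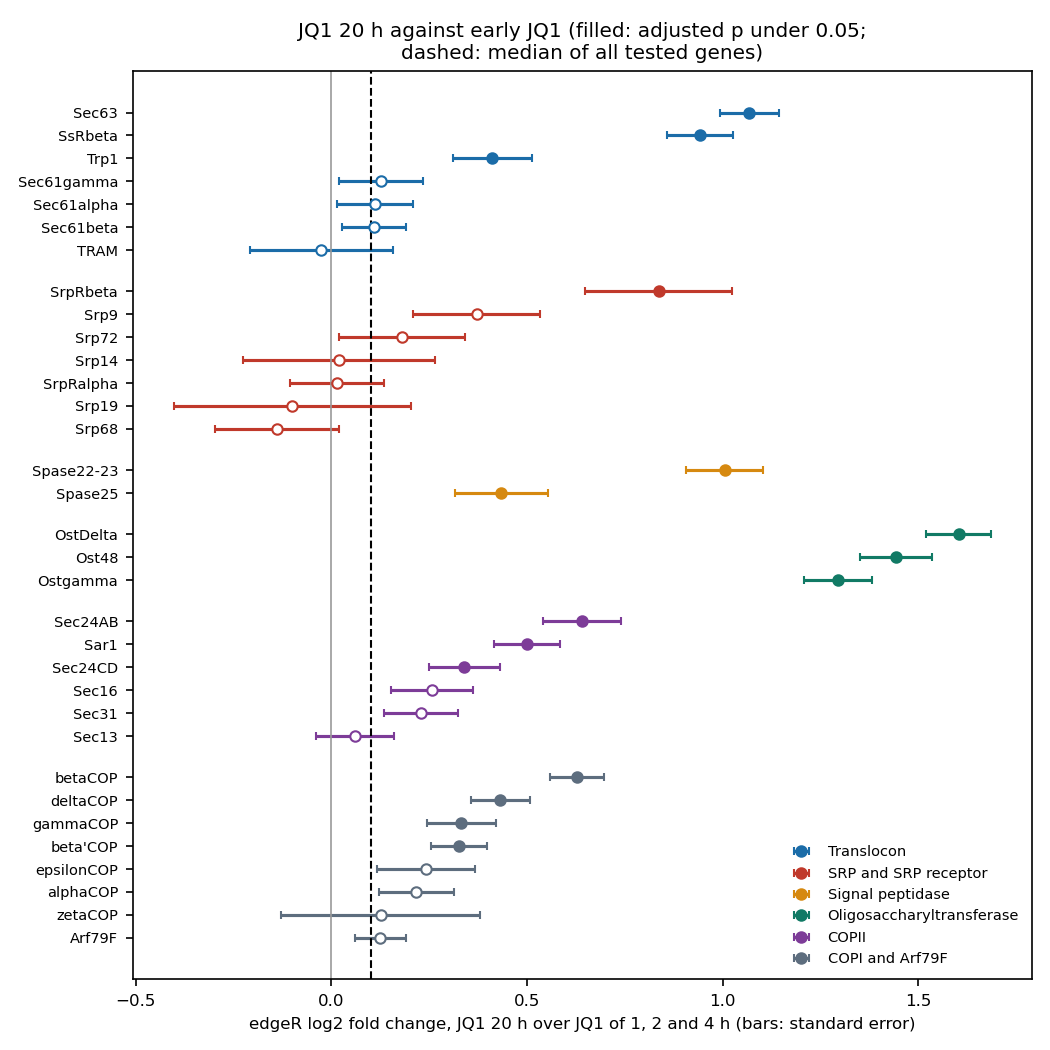
Log2 fold change estimated by edgeR for JQ1 20 h over JQ1 of 1, 2 and 4 h (x axis) in each of the 33 tested members, grouped by class, with standard errors as bars. Filled points mark the 16 members with an adjusted p under 0.05, and the dashed line is the median of all tested genes at 0.10.

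OST transfers a preassembled sugar chain to asparagine residues of proteins entering the ER. Its 3 listed subunits showed the highest levels relative to DMSO of any class at 20 h. With the index scaling they stayed near the DMSO level until 4 h. Relative to genes of like abundance they were already higher in those hours. Their median distance from the median of their bin was 0.29, 0.405, 0.60 and 1.64 at 1, 2, 4 and 20 h. OstDelta, a structural subunit related to mammalian ribophorin II, had 15142, 16413, 17262 and 49443 scaled counts with JQ1 of 1, 2, 4 and 20 h, against 16517 and 17533 with DMSO of 1 and 20 h. Its 20 h level was 2.90 times the DMSO mean, while the earlier JQ1 libraries lay below or within the DMSO pair. Ost48, which helps hold the complex together, had 6244, 6760, 7197 and 18315 scaled counts with JQ1, against 6464 and 6583 with DMSO. Its 20 h level was 2.81 times the DMSO mean. Ostgamma, a relative of the mammalian subunits that act as oxidoreductases, had 5611, 5885, 6249 and 14515 scaled counts with JQ1, against 6115 and 6427 with DMSO, and was 2.32 times the DMSO mean at 20 h. In all 3 genes JQ1 20 h lay above the other 5 libraries, a pattern found in 17 of 33 members and in 16% of all tested genes.

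These 3 genes were the only members above 200% of the DMSO mean at 20 h (9.09% of members, background 4.45%). At 1, 2 and 4 h no member was above 200%, where the background was 0.909%, 2.41% and 2.13%. Against early JQ1, edgeR gave log2 fold changes of 1.60 ± 0.08 (SE) for OstDelta, 1.44 ± 0.09 for Ost48 and 1.29 ± 0.09 for Ostgamma. The adjusted p-values were 0.000967 for OstDelta, 0.00107 for Ost48 and 0.0012 for Ostgamma. Over 13 other settings the estimates of these genes ran between 1.06 and 1.65, with adjusted p up to 0.0243. Set against the DMSO library of 20 h alone, the log2 fold changes at JQ1 20 h were 1.48 for Ost48 and 1.18 for Ostgamma, with OstDelta above both. The 3 genes held 0.107%, 0.114%, 0.125% and 0.278% of gene reads with JQ1 of 1, 2, 4 and 20 h, against 0.0940% and 0.0958% with DMSO.

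**Figure D3:**
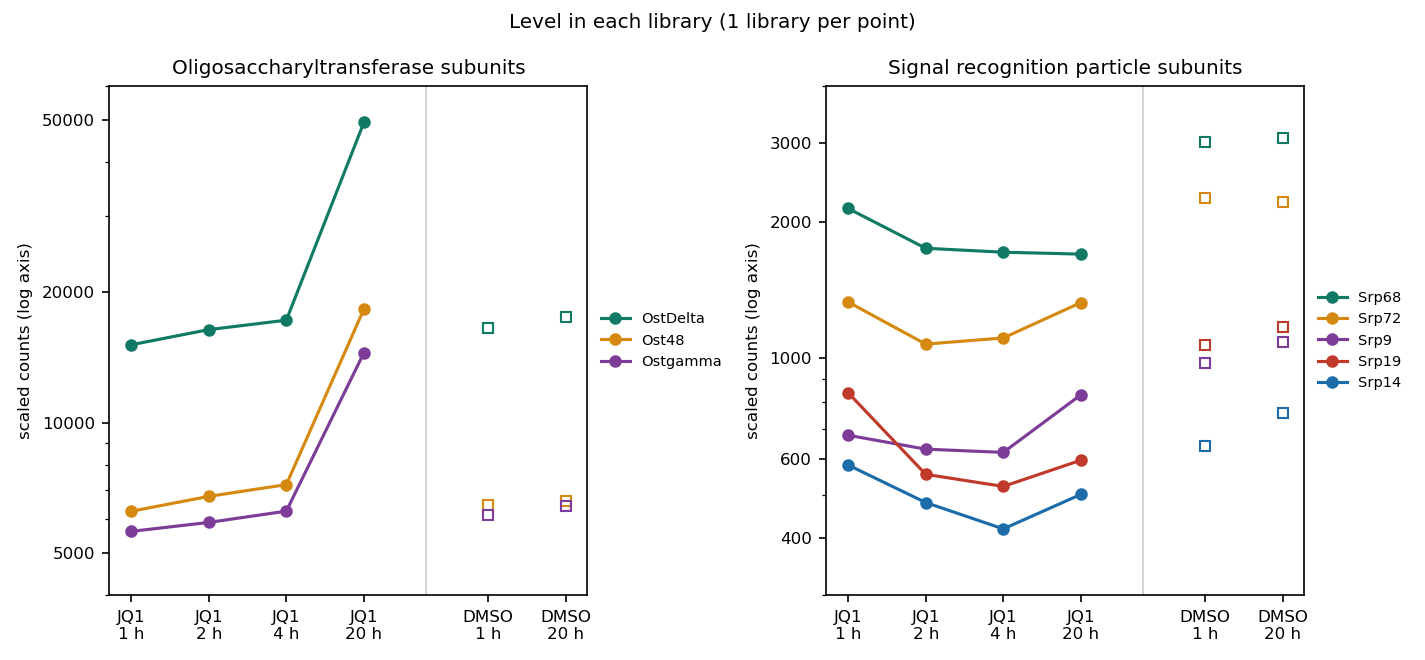
Scaled counts (y axis, log) of the 3 OST subunits on the left and 5 SRP subunits on the right in each library, with JQ1 of 1, 2, 4 and 20 h as filled points joined by lines and DMSO of 1 and 20 h as open squares. OST genes stand highest at JQ1 20 h, and every SRP point with JQ1 lies below the DMSO squares of its gene.

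Signal peptidase cuts the signal peptide off after it has entered the channel. Both tested subunits were higher at JQ1 20 h than at the earlier JQ1 times. Spase22-23, an accessory subunit that spans the membrane, had 3514, 3647, 3978 and 7453 scaled counts with JQ1 of 1, 2, 4 and 20 h, against 3740 and 3759 with DMSO. Its 20 h level was 199% of the DMSO mean, just under the limit of 2-fold, and 30.6% of its exonic length is overlapped by another gene. Spase25, another accessory subunit, had 2398, 2312, 2076 and 3058 scaled counts with JQ1, against 2747 and 2833 with DMSO. The earlier JQ1 libraries lay below the DMSO pair in Spase25 and JQ1 20 h above it. Against early JQ1, edgeR gave 1.01 ± 0.10 (adjusted p 0.00263) for Spase22-23 and 0.43 ± 0.12 (adjusted p 0.0453) for Spase25.

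Within the translocon class the channel genes stayed near their DMSO level while some partner genes did not. The Sec61 channel is built of the pore subunit Sec61alpha and the small subunits Sec61beta and Sec61gamma. Sec61alpha had 14045, 15319, 16277 and 16443 scaled counts with JQ1 of 1, 2, 4 and 20 h, against 14884 and 15736 with DMSO. Sec61beta had 4748, 4721, 4869 and 5159 with JQ1, against 4975 and 5051 with DMSO. Sec61gamma had 1830, 1795, 1870 and 2000 with JQ1, against 1976 and 1986 with DMSO. In each of the 3 genes every JQ1 level was between 90.6% and 107% of the DMSO mean, and none was called in any contrast with the index scaling. At JQ1 20 h against DMSO, edgeR gave 0.10 ± 0.10 (adjusted p 0.424) for Sec61alpha, 0.04 ± 0.09 (0.704) for Sec61beta and 0.01 ± 0.12 (0.928) for Sec61gamma. With TMM all 3 were higher in that contrast, by 0.60, 0.53 and 0.51, and with that scaling the median of all genes was -0.10. Relative to genes of their abundance the 3 genes lay 0.20, 0.38 and 0.63 higher at 20 h.

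Sec63 helps to open the channel and recruits the chaperone BiP to it. It had 6412, 6331, 6213 and 13252 scaled counts with JQ1 of 1, 2, 4 and 20 h, against 7422 and 7940 with DMSO, so JQ1 20 h lay above the DMSO pair and the earlier times below it. Another gene overlaps 60.7% of its exonic length, which makes this count less certain. SsRbeta, a subunit of the translocon-associated protein complex, had 4208, 4339, 4111 and 8107 scaled counts with JQ1, against 4658 and 4928 with DMSO, the same order of levels with no overlap by another gene. Against early JQ1, edgeR gave 1.07 ± 0.08 (adjusted p 0.00144) for Sec63 and 0.94 ± 0.08 (adjusted p 0.00216) for SsRbeta. Against DMSO the JQ1 20 h estimates were 0.79 ± 0.08 (adjusted p 0.00419) for Sec63 and 0.76 ± 0.09 (adjusted p 0.00487) for SsRbeta.

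Trp1, the fly relative of the channel partner Sec62, rose by 0.41 ± 0.10 at 20 h against early JQ1 (edgeR, adjusted p 0.0346) and its 20 h level was 108% of the DMSO mean. TRAM, which lines the channel exit for some proteins, had the lowest 20 h level of the class relative to DMSO. It did not lie below genes of its abundance, with distances of 0.24, 0.25, 0.09 and 0.02 at 1, 2, 4 and 20 h. It had 1690, 1548, 1287 and 1482 scaled counts with JQ1, against 2040 and 2304 with DMSO, and all 4 JQ1 libraries lay below both DMSO libraries. The edgeR estimate for all JQ1 libraries against DMSO was -0.53 ± 0.16 for TRAM (adjusted p 0.0327), but the estimate was 0.05 with TMM and 0.10 with DESeq2 factors. Over all tested genes the median estimate in that test was -0.63 with the index scaling.

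**Figure D4:**
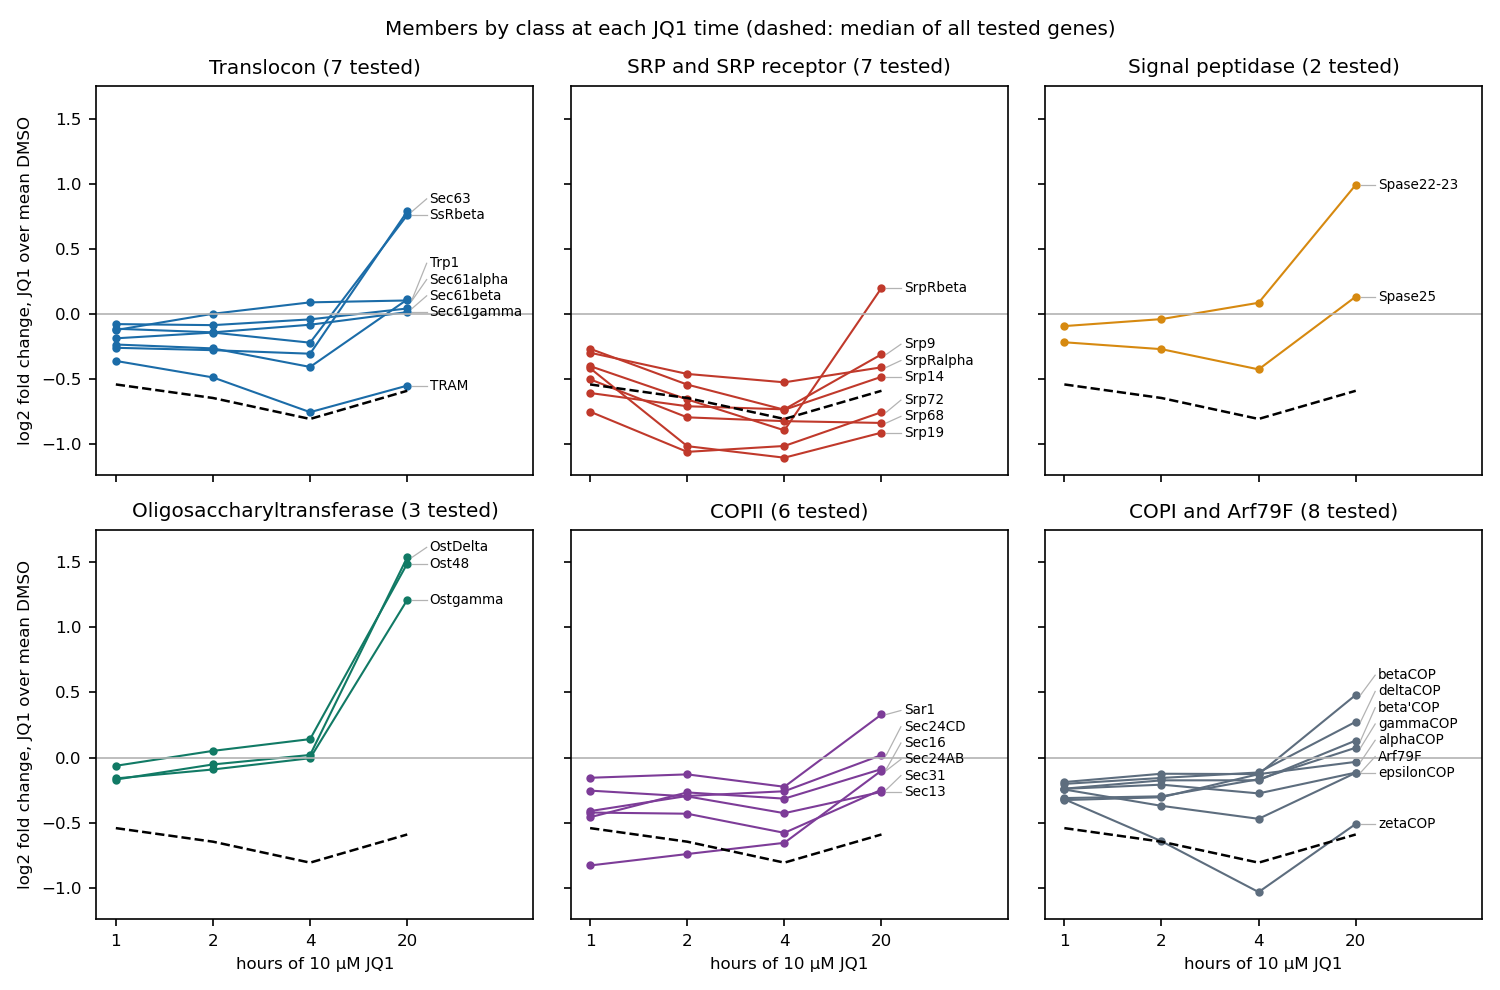
Log2 fold change of JQ1 over mean DMSO (y axis) at 1, 2, 4 and 20 h (x axis, equally spaced) for the 33 tested members in panels by class, with 1 line per gene and 1 JQ1 library per time. The dashed line is the median of all tested genes, -0.59 at 20 h, above which all 3 OST genes and all COPII genes lie at 20 h while Srp19, Srp68 and Srp72 lie below it.

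SRP is a ribonucleoprotein, and with the index scaling the 5 listed protein subunits had lower levels in every JQ1 library than in either DMSO library, an order that was not kept for all of them with other scalings. Srp72, which binds the SRP RNA together with Srp68, had 1332, 1076, 1110 and 1329 scaled counts with JQ1 of 1, 2, 4 and 20 h, against 2267 and 2220 with DMSO. Srp68 had 2145, 1752, 1717 and 1700 with JQ1, against 3013 and 3065 with DMSO, and did not come back up at 20 h. Srp19, which is needed to assemble the particle, had 840, 554, 521 and 596 with JQ1, against 1069 and 1175 with DMSO, the lowest level relative to DMSO of any member at 20 h (53.1%). The edgeR estimates for all JQ1 libraries against DMSO were -0.89 ± 0.16 for Srp72 (adjusted p 0.00798), -0.73 ± 0.15 for Srp68 (adjusted p 0.0105) and -0.84 ± 0.23 for Srp19 (adjusted p 0.0262). Under DESeq2 factors these estimates shrank to -0.26, -0.10 and -0.21 and were no longer called.

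Srp9 and Srp14 form the part of SRP that slows the ribosome. Srp9 had 676, 630, 620 and 831 scaled counts with JQ1, against 976 and 1086 with DMSO, and was lower in all JQ1 libraries against DMSO by edgeR (-0.58 ± 0.19, adjusted p 0.0424), an estimate that was 0.05 with DESeq2 factors. Srp14 was not called in that test (-0.50 ± 0.20, adjusted p 0.0808), with 420 to 581 scaled counts in JQ1 libraries, against 642 and 759 in DMSO libraries. Relative to genes of their abundance, Srp9 and Srp14 lay 0.48 and 0.40 higher at 20 h, while Srp72, Srp68 and Srp19 lay lower, with distances of -0.19, -0.42 and -0.19. The 5 genes together held 0.0221%, 0.0177%, 0.0178% and 0.0167% of gene reads with JQ1 of 1, 2, 4 and 20 h, against 0.0257% and 0.0260% with DMSO.

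The SRP receptor has a subunit that binds SRP and a small GTPase that anchors it in the membrane, and the 2 genes parted at 20 h. SrpRbeta, the membrane anchor, had 1725, 1444, 1225 and 2615 scaled counts with JQ1 of 1, 2, 4 and 20 h, against 2265 and 2291 with DMSO. Its 4 h level was 53.8% of the DMSO mean and at 20 h its log2 fold change was 0.20, and edgeR gave 0.84 ± 0.19 for JQ1 20 h against early JQ1 (adjusted p 0.0273). SrpRalpha, the subunit that binds SRP, had 3163, 2825, 2701 and 2926 with JQ1, against 3871 and 3908 with DMSO, and all 4 JQ1 libraries lay below the DMSO pair. For SrpRalpha the same contrast gave 0.01 ± 0.12 (adjusted p 0.94). The estimate for all JQ1 libraries against DMSO was -0.42 ± 0.12 (adjusted p 0.03) and became 0.21 with DESeq2 factors.

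The distance between OST and SRP grew with time, and a difference between gene groups within a library does not depend on how libraries are scaled. The median log2 fold change of the 3 OST genes exceeded that of the 5 SRP genes by 0.34, 0.74, 0.84 and 2.24 at 1, 2, 4 and 20 h. The OST genes were more abundant in DMSO than the SRP genes, and the change varied with abundance. Measured from genes of like abundance the groups lay closer together. The median distances at those times were 0.29, 0.405, 0.60 and 1.64 for OST and 0.12, -0.06, -0.02 and -0.19 for SRP. These are medians over a few genes in 1 library per time, with no test.

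With the index scaling 5 of 6 COPII members were lower in early JQ1 than in DMSO by edgeR (background 64.4%), and with TMM or DESeq2 factors none was. Sar1, the GTPase that starts the coat, was the highest of the 6 tested genes at 20 h. It had 5934, 6042, 5656 and 8312 scaled counts with JQ1 of 1, 2, 4 and 20 h, against 6401 and 6815 with DMSO, with JQ1 20 h above all other libraries. Sec24AB, a cargo-binding subunit, had the lowest 1 h level of any member relative to DMSO at 56.3%, with 3244, 3447, 3659 and 5376 scaled counts under JQ1, against 5628 and 5896 under DMSO. Sec13, part of the outer cage, had the lowest 20 h value of the class, with 4892, 4744, 4338 and 4859 scaled counts under JQ1, against 5879 and 5788 under DMSO. Against early JQ1, edgeR called Sec24AB (0.64 ± 0.10, adjusted p 0.00996), Sar1 (0.50 ± 0.09, adjusted p 0.0128) and Sec24CD, the other cargo-binding paralogue (0.34 ± 0.09, adjusted p 0.0433) higher at 20 h. Sec13 (0.06 ± 0.10, adjusted p 0.687) was not called there, nor were the scaffold Sec16 (0.26 ± 0.10, adjusted p 0.125) and the outer cage protein Sec31 (0.23 ± 0.10, adjusted p 0.13). Sec31 was lower in all JQ1 libraries against DMSO (-0.41 ± 0.12, adjusted p 0.0331 by edgeR) and its estimate became 0.22 with DESeq2 factors.

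COPI is a coat of 7 subunits, here all tested, that is recruited to membranes by Arf79F, the fly Arf1. Its other 6 subunits, all but zetaCOP, had 20 h levels between 92.2% and 140% of the DMSO mean. betaCOP, a subunit of the inner layer, had 9186, 9601, 9583 and 14606 scaled counts with JQ1 of 1, 2, 4 and 20 h, against 10455 and 10475 with DMSO, and JQ1 20 h lay above all other libraries. The exception was zetaCOP, a small inner-layer subunit, which had 2931, 2344, 1788 and 2569 with JQ1, against 3614 and 3705 with DMSO, 48.9% of the DMSO mean at 4 h and 70.2% at 20 h. Against early JQ1, edgeR called betaCOP (0.63 ± 0.07, adjusted p 0.00376), deltaCOP (0.43 ± 0.07, adjusted p 0.0132), gammaCOP (0.33 ± 0.09, adjusted p 0.0424) and beta'COP (0.33 ± 0.07, adjusted p 0.0255) higher at 20 h. The estimates for alphaCOP (0.22 ± 0.10), epsilonCOP (0.24 ± 0.12) and zetaCOP (0.13 ± 0.25) were not called. In the test of all JQ1 libraries against DMSO, zetaCOP was lower by edgeR (-0.60 ± 0.20, adjusted p 0.0448), and its estimate was 0.02 with DESeq2 factors. Arf79F was 82.6% to 92.3% of the DMSO mean in the JQ1 libraries.

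Levels of different genes were compared per kb of exon. With JQ1 the 7 COPI subunits ran between 1457 (zetaCOP) and 3747 (deltaCOP) scaled counts per kb at 4 h, a ratio of 2.57, and between 2094 and 4907 at 20 h, a ratio of 2.34. In DMSO their mean levels lay between 2296 (epsilonCOP) and 4056 (deltaCOP), a ratio of 1.77. The SRP subunits were lower per kb than the COPI, OST and Sec61 subunits, with 618 (Srp72) to 1079 (Srp14) scaled counts per kb at JQ1 20 h, against 1044 (Srp72) to 1718 (Srp19) in DMSO. OST subunits had 11660 (Ostgamma) to 22460 (OstDelta) scaled counts per kb at JQ1 20 h, against 4312 (Ost48) to 7735 (OstDelta) in DMSO. The Sec61 subunits had 2506 (Sec61gamma) to 7727 (Sec61alpha) at JQ1 20 h, against 2482 to 7194 in DMSO. Per kb, the lowest OST level lay above the highest Sec61 level at JQ1 20 h, while in DMSO the ranges of the OST and Sec61 levels overlapped.

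No member exceeded its DMSO mean at 1 h, where 9.11% of tested genes did. Sec61alpha and Ost48 did so at 2 h (background 14.1%), and Sec61alpha, Spase22-23, Ost48 and OstDelta at 4 h (background 11.7%). At 20 h 18 of 33 members did (54.5%), beside 21% of tested genes. These counts hold for the index scaling alone.

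DMSO 20 h against DMSO 1 h gave the background of culture time. The 33 members differed by -0.03 (Srp72) to 0.24 (Srp14) on the log2 scale, with a median of 0.04. No member passed 2-fold between the DMSO libraries in either direction, as against 0.621% of tested genes above 200% and 0.506% below 50%. Members below 50% of the DMSO mean with JQ1 numbered 0 at 1 h, where the background was 19.9%. At 2 h they were Srp19 and Srp72 (background 31.4%), and at 4 h zetaCOP joined them (background 40%). At 20 h the number was again 0, beside 31.7% of tested genes.

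Other genes of the secretory route were read from 6 lists of 69 genes, of which 55 were matched and tested. In JQ1 20 h against early JQ1, 26 of 55 were higher and 1, CrebA, was lower by edgeR, beside 17.2% of all tested genes higher and 7.34% lower. At JQ1 20 h against DMSO 11 of 55 were higher and 9 lower, beside 7.55% of all tested genes higher and 42.4% lower. Among other genes of translocation and glycosylation, 6 of 7 were higher at JQ1 20 h against early JQ1 and 3 of 7 at JQ1 20 h against DMSO. Stt3B, a catalytic subunit of OST, had 9734, 10577, 11643 and 25500 scaled counts with JQ1 of 1, 2, 4 and 20 h, against 10521 and 10574 with DMSO, 1.27 ± 0.11 at 20 h against DMSO (edgeR, adjusted p 0.00375). CG33303, listed in the reference under the synonym OST, had 10377, 10685, 11531 and 25762 with JQ1, against 10930 and 11007 with DMSO, 1.23 ± 0.08 in that contrast (adjusted p 0.00296). Stt3A, the other catalytic subunit, had 12044, 12133, 11789 and 16585 with JQ1, against 14640 and 15251 with DMSO, so its 20 h excess over DMSO was smaller.

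Cargo receptors and p24 proteins, which select cargo for COPII and COPI vesicles, were higher at JQ1 20 h than at the early times in 8 of 9 tested genes (background 17.2%), with a median log2 fold change of 0.54 over DMSO at 20 h. ergic53, a lectin that carries glycoproteins out of the ER, had 8020, 8653, 8605 and 17702 scaled counts with JQ1, against 9235 and 9646 with DMSO. The p24 protein bai had 4473, 4401, 4481 and 8739 with JQ1, against 4732 and 4908 with DMSO. In both genes JQ1 20 h lay above all other libraries. Their edgeR estimates at 20 h against DMSO were 0.91 ± 0.08 for ergic53 (adjusted p 0.00384) and 0.86 ± 0.08 for bai (adjusted p 0.00394).

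The following lists had medians below the member median of 0.02 at 20 h. Their median edgeR estimates for JQ1 20 h against early JQ1 were not all smaller than the 0.33 of the members. They were 0.42 for tethers and SNAREs, 0.38 for Arf family genes and regulators and 0.22 for clathrin and adaptors. Relative to genes of like abundance, the median distances of these lists at 20 h were 0.34, 0.24 and 0.03 in that order. The members had 0.40. Over all 55 other secretory genes the median distance was 0.34, and 41 of 55 lay above the median of their bin. Tethers and SNAREs, which dock and fuse vesicles, had a median of -0.97 at 4 h and -0.25 at 20 h, and 7 of 19 were higher at JQ1 20 h against early JQ1 (background 17.2%). The TRAPP subunits Bet5 and Trs23 had the lowest 20 h values of that list, -1.64 and -1.48, and neither was called at 20 h against DMSO (adjusted p 0.0616 for Bet5 and 0.101 for Trs23, edgeR). Arf family genes and their regulators had a median of -0.22 at 20 h, with ArfGAP1 at -0.71 (adjusted p 0.0312, edgeR) and Arl1 at -0.45 (adjusted p 0.217). Clathrin and its adaptors, which coat vesicles of the late secretory and endocytic routes, had a median of -0.29, with AP-1mu at -0.71 (adjusted p 0.0322, edgeR) and AP-1gamma at -0.42 (adjusted p 0.0507). The calls for ArfGAP1 and AP-1mu were lost with TMM, where the estimates were -0.22 for both.

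Regulators of secretory genes and of the ER stress response did not share one direction. CrebA, a transcription factor that raises secretory genes in fly embryos and glands, had 1016, 1215, 985 and 590 scaled counts with JQ1 of 1, 2, 4 and 20 h, against 2083 and 2379 with DMSO. It was lowest at the time when the OST genes were highest, and all 4 JQ1 libraries lay below the DMSO pair. The edgeR estimate at 20 h against DMSO was -1.92 ± 0.21 for CrebA (adjusted p 0.00421) and stayed between -2.03 and -1.36 over the other settings. Atf6, an ER stress sensor and transcription factor, was lower in that contrast by -0.78 ± 0.20 (adjusted p 0.0238, edgeR), a call lost with TMM (-0.28). Of the 5 tested genes of this list 3 were called lower at 20 h against DMSO (CrebA, Atf6 and Xbp1, background 42.4%) and 1 higher (PEK, an ER stress kinase, background 7.55%). Xbp1, the transcription factor of the Ire1 branch, had 17637, 15323, 13390 and 17249 scaled counts with JQ1, against 25582 and 26274 with DMSO. With the index scaling its edgeR estimate at 20 h against DMSO was -0.59, a smaller decrease than that of Atf6. Scaling shifts every gene of a library by nearly the same amount, so the decrease of Xbp1 depends on it as well. PEK had 5842, 6347, 6424 and 12622 with JQ1, against 7968 and 8651 with DMSO, a 20 h level above all other libraries.

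**Figure D5:**
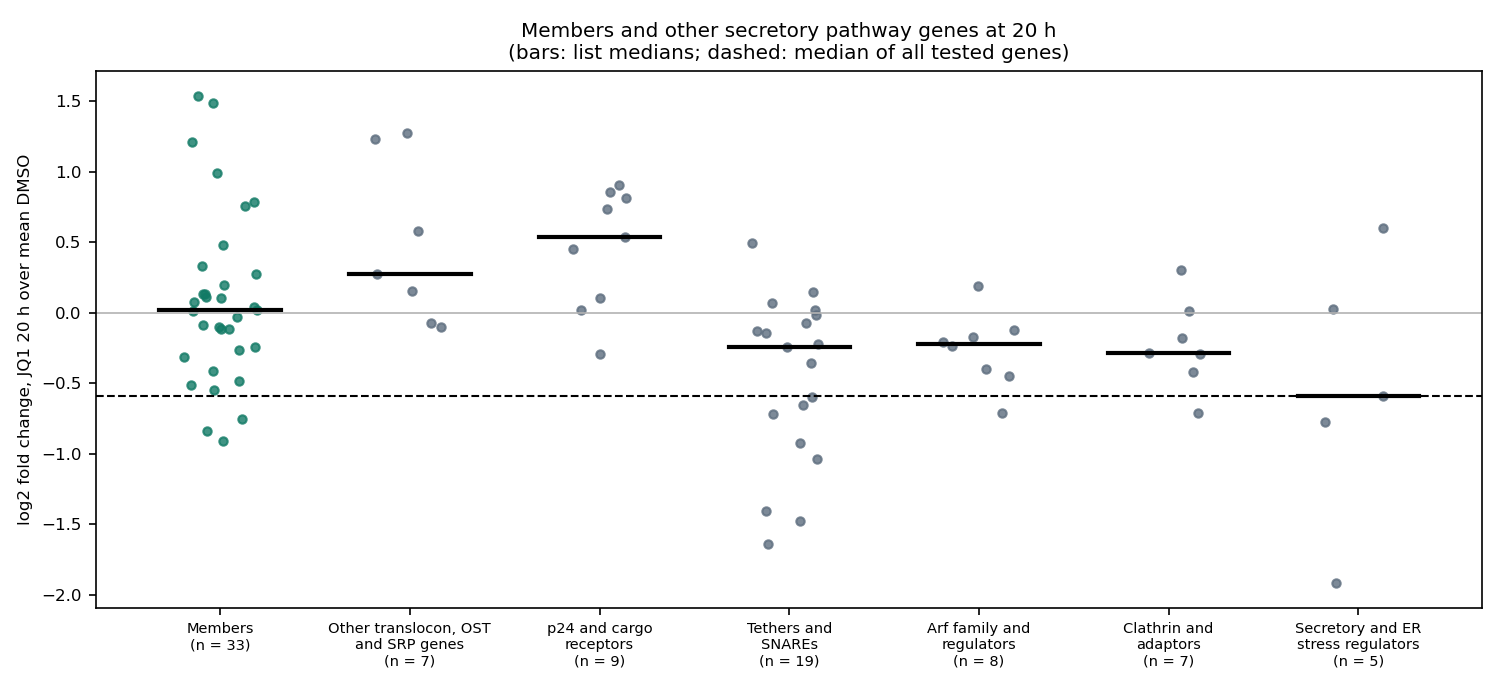
Log2 fold change of JQ1 20 h over mean DMSO (y axis) for the 33 tested members and 6 lists of other secretory pathway genes (x axis, 55 genes), with 1 point per gene and black bars at list medians. The list medians run between -0.59 for the regulators and 0.54 for p24 and cargo receptors, and the dashed line marks the median of all tested genes at -0.59.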

How the data were processed

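RNA-seq libraries were analysed, 4 with JQ1 and 2 with DMSO. Per gene, the files deposited by the authors give unnormalized counts. Single-end reads had been aligned with TopHat with Ensembl release 64 models and uniquely mapping ones counted with HTSeq-count (genome build, versions and use of strand not given in the sources used here). The 5 lines that named no gene held 21.9% to 27.3% of records and were left out. Identifiers were matched to symbols, synonyms and exonic lengths of the BDGP6 annotation (Ensembl release 115). Sec24CD was matched by an older identifier and Arf79F as a synonym of Arf1.

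Library factors were medians over the 100 genes most abundant in DMSO of count over geometric mean, after the index of the authors, and held 0 members. The filter kept genes averaging 10 or more scaled counts, tested with edgeR 4.0.16 (R 4.3.3), quasi-likelihood, two-sided, Benjamini-Hochberg over 8690 genes, threshold 0.05. Single times used log2((JQ1 + 1)/(mean DMSO + 1)) without a test. The spread within a group includes time. Alternatives were other scalings, filters, a pseudocount of 5, single controls, 10 bins, each library left out, duration as a block, and DESeq2 1.42.0.

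Values in every library were given for the highest and lowest member of each class at 20 h, for up to 10 called members with the smallest p and for members beyond 2-fold; other lists have 2 examples by size of the 20 h change. The Sec61 genes, Stt3A, Xbp1, PEK, SrpRalpha, Srp9 and Srp14 were added after their values were seen. Members and lists were chosen with earlier results of these data known. Fits were tested on simulated data.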

Additional observations from a re-analysis of the deposited data

Results flagged for a closer look

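Within the 4 JQ1 libraries, 11 of 33 members had 1 library far from the other 3. This was judged by the gap to its nearest neighbour as a share of the whole range. In 10 of the 11 that library was JQ1 20 h, on the high side. JQ1 20 h was the highest JQ1 library in 44.4% of all tested genes. Chance gives about 1 in 20 such groups among exchangeable libraries with normally distributed values, but these 4 differ in time. How many of all tested genes have such a gap was not counted, so no excess among members is read from this. The gap as a share of the range was 0.972 for Sec63, 0.943 for SsRbeta, 0.938 for OstDelta, 0.928 for Ostgamma and 0.923 for betaCOP. It was 0.921 for Ost48, 0.882 for Spase22-23, 0.855 for Sar1, 0.843 for beta'COP and 0.84 for deltaCOP. For Srp68 it was 0.884, with JQ1 1 h highest.

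The members listed next were flagged by edgeR's contrast of the level at JQ1 20 h (1 library) with that at the early JQ1 times (adjusted p under 0.05). The contrast holds no DMSO term, so it does not measure whether the response to JQ1 differed from the change with culture time. The log2 difference was 1.6 for OstDelta, 1.44 for Ost48, 1.3 for Ostgamma, 1.07 for Sec63, 1.01 for Spase22-23, 0.94 for SsRbeta and 0.84 for SrpRbeta. It was 0.64 for Sec24AB, 0.63 for betaCOP, 0.5 for Sar1, 0.43 for Spase25, 0.43 for deltaCOP, 0.41 for Trp1, 0.34 for Sec24CD, 0.33 for beta'COP and 0.33 for gammaCOP.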

How the results depend on the processing

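Apart from pairing by treatment duration, no paired analysis was possible because the labels carry no replicate numbers. With duration as a block, which leaves 4 libraries, 0 genes and 0 members were called in JQ1 against DMSO. Leaving out each library in turn, members lower in JQ1 against DMSO numbered 0 to 21 (21 without JQ1 20 h, 2 without JQ1 2 h or JQ1 4 h, 0 without either DMSO library), genes lower 0 to 5586 and genes higher 0 to 214. Members lower in early JQ1 numbered 4 to 22, members higher at JQ1 20 h against early JQ1 7 to 17 (7 without JQ1 2 h, 9 without either DMSO library), members lower at JQ1 20 h against DMSO 0 to 8, and members higher there 6 to 9. With TMM, 565 genes were lower and 436 higher in JQ1 against DMSO, with 0 members lower and 3 higher; early JQ1 gave 0 members lower and 19 higher, and JQ1 20 h against DMSO 0 lower and 20 higher. With DESeq2 factors 482 genes were lower and 460 higher, with the same member counts, and 10 members were higher at JQ1 20 h against early JQ1. The 500-gene index gave 2248 genes and 2 members lower, and 5 members lower and 1 higher in early JQ1. Total counts gave 1895 genes and 1 member lower, 3 lower and 6 higher in early JQ1, and 8 higher at 20 h against early JQ1. The summed index gave 10 higher there and 7 lower against DMSO. No filter left 5 members lower in JQ1 against DMSO.

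The member median log2 fold change at 1, 2, 4 and 20 h was 0.28, 0.33, 0.41 and 0.51 with TMM, 0.30, 0.36, 0.48 and 0.58 with DESeq2 factors, 0.0594, 0.0288, 0.0446 and 0.10 with total counts, and -0.0315, -0.0763, -0.0465 and 0.16 with the 500-gene index. The summed index gave -0.19 at 1 h and -0.0929 at 20 h. DMSO 1 h as the only control gave -0.25, -0.26 and 0.0502 at 2, 4 and 20 h, and DMSO 20 h gave -0.34 at 4 h. The median distance from genes of like abundance was 0.16, 0.20, 0.27 and 0.38 with DMSO 1 h alone, 0.26 at 4 h and 0.42 at 20 h with DMSO 20 h alone, 0.27 at 4 h and 0.41 at 20 h without a filter, 0.25 at 4 h with a minimum of 50, and 0.20, 0.26 and 0.35 at 2, 4 and 20 h with 10 bins. Some called decreases turned round. In JQ1 against DMSO, TRAM was 0.0508, SrpRalpha 0.16 and Sec31 0.17 with TMM, while with DESeq2 factors TRAM was 0.10, SrpRalpha 0.21, Srp9 0.05, Sec31 0.22 and zetaCOP 0.0178. At JQ1 20 h against DMSO, SrpRalpha was 0.0819 with TMM and 0.15 with DESeq2 factors. The uncalled estimates of Sec61alpha, Sec61beta and Sec61gamma in that contrast were -0.009, -0.0709 and -0.0987 with the summed index. Apart from the scalings, whose construction sets the level against DMSO, the cause was not tested. Each time had 1 JQ1 library, so no spread at a single time can be given.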
